A study of Mus musculus with 18 samples.

Results

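S100a8 and S100a9 were examined across 18 single-cell libraries of mouse lung, spleen and implanted biomaterial scaffold. These 2 genes, taken by symbol from the 22049 genes counted, encode the subunits of calprotectin. The tumour-bearing mice were female BALB/cJ animals that carried a tumour grown from 2000000 4T1-tdTomato-luc2 cells (4T1 mouse mammary carcinoma with a fluorescent and a luminescent reporter), placed in the fourth right mammary fat pad 7, 14 or 21 days earlier. The healthy mice were of the same strain, sex and ages (9, 10 and 11 weeks at the 3 time points) and were not injected with tumour cells, and scaffolds were taken from both kinds of mice. Drop-seq catches each cell with a barcoded bead, and each transcript is counted once by the molecular identifier (UMI) read beside the barcode of its cell. Each tissue gave 1 library per status and day, so a difference on a single day has no test, and the 3 libraries of a group are of 3 different days. The number of animals behind a library is not stated in the labels, and p-values therefore measure the spread between these libraries, which may be technical.

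Calprotectin is a heterodimer of 2 calcium-binding proteins of the S100 family and is among the most abundant proteins of the neutrophil cytosol. It binds zinc and manganese, which starves microbes of these metals, and once released it acts as an alarm signal through Toll-like receptor 4 and the receptor for advanced glycation end products. Monocytes also make the pair, usually at lower levels than neutrophils, whereas resting lymphocytes are known to make little of it. Both genes are switched on during myeloid maturation and are widely used as markers of neutrophils and of the myeloid cells that expand in mice with tumours.

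Both genes lie in the S100 cluster of chromosome 3 (GRCm38.p6). S100a8 runs from 90669071 to 90670034 on the plus strand and S100a9 from 90692630 to 90695721 on the minus strand, with 22595 bases between them. The 250 bases before each annotated start are shown because the 2 genes moved together in these libraries. They come from the RefSeq promoter table, which matched 2 of 2 genes, and are given 5′ to 3′ on the strand of the gene: chr3:90668821-90669070 on the plus strand for S100a8 and chr3:90695722-90695971 on the minus strand for S100a9. Capitals mark matches on either strand to TATAAA (the TATA box), TTNNGNAA (a loose form of the motif of the C/EBP factors) and GAGGAA (the core of the PU.1 motif).
S100a8: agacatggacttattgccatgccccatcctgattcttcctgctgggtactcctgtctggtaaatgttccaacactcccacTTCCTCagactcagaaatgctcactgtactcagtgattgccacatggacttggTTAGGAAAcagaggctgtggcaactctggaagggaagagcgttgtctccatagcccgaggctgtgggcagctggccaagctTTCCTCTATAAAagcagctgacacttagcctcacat
S100a9: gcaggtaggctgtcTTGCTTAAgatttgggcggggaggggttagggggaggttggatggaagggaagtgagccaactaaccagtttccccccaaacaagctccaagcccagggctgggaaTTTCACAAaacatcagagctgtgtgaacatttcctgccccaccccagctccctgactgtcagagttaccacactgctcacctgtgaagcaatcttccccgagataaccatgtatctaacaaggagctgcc
In S100a8 the TATA box match lay 30 to 25 bases before the start and directly followed a match to GAGGAA on the opposite strand, with a further such match 170 to 165 bases and a TTNNGNAA match 117 to 110 bases before the start. S100a9 held TTNNGNAA at 236 to 229 and at 130 to 123 bases before the start, both found on the opposite strand, and neither of the other motifs. These short motifs were common: TATAAA was present in 13.0% of 27025 promoter windows of the same length, TTNNGNAA in 36.9% and GAGGAA in 23.1%. A match describes letters and not binding.

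After filtering, 24536 cells remained, with 484 to 3387 cells and 292092 to 4291208 UMIs per library and a median of 383 to 1222.5 UMIs per cell. Sftpc, a surfactant gene of lung epithelium, was detected at 0.235 to 9.34 CPM (a gene's share of the library's UMIs, on the usual counts-per-million scale) in tumour-bearing and 23.0 to 700.3 CPM in healthy lung and did not exceed 0.436 CPM in other tissues. Cd79a of B cells lay at 22.0 to 655 CPM in tumour-bearing and 17.1 to 979.7 CPM in healthy spleen, and reached 360 CPM in healthy lung. The collagen gene Col3a1 lay at 117 to 415 CPM in tumour-bearing and 134 to 1012 CPM in healthy scaffold. It reached 377 CPM in healthy spleen and 317 CPM in healthy lung, so in healthy mice the ranges of both genes overlapped between tissues. Many barcodes of day 21 were present in several libraries: 1046 of 7545 in 2 or more and 243 in all 6, against 279 of 5684 on day 7 and 103 of 8932 on day 14. In an alternative called assignment below, each such barcode was kept in 1 library if its UMIs there were at least 5 times those in any other library, and was otherwise dropped. Then 27 of 511 cells remained in healthy spleen of day 21 and 235 of 1029 in healthy lung of day 21. These 2 libraries stood apart. Some of the values that rest on them are given with assignment as well, while the log2 fold changes per tissue are given with all barcodes.

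In lung both genes rose in tumour-bearing mice, and the tumour-bearing library was the higher one on each of the 3 days. S100a8 stood at 21712, 50186 and 72530 CPM on days 7, 14 and 21 in tumour-bearing lungs, against 1802, 2278 and 2523 CPM in healthy lungs. S100a9 stood at 24020, 65428 and 83566 CPM in tumour-bearing lungs, against 2301, 2315 and 3653 CPM in healthy lungs. In tumour-bearing lung of day 21 S100a9 had the most UMIs of all genes and S100a8 the second most. The log2 fold change was 4.57 ± 0.68 (SE, 3 against 3 libraries; adjusted p = 0.00197 in edgeR) for S100a8 and 4.51 ± 0.65 (adjusted p = 0.00189 in edgeR) for S100a9. Both genes were thus called in lung, where 9.07% of the 11158 genes tested were called in either direction (1012 genes). Without day 14 the adjusted p values were 0.0562 for S100a8 and 0.051 for S100a9 in edgeR, with log2 values of 4.68 and 4.41.

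In spleen the difference was of similar size, with the lowest tumour-bearing level on day 7. S100a8 stood at 9484, 70150 and 74652 CPM on days 7, 14 and 21 in tumour-bearing spleens, against 1280, 1335 and 3403 CPM in healthy spleens. S100a9 stood at 9912, 62772 and 90280 CPM in tumour-bearing spleens, against 1217, 1659 and 4680 CPM in healthy spleens. The highest healthy values were those of day 21, the library that kept 27 cells with assignment. S100a8 rose by log2 4.67 ± 0.71 (adjusted p = 0.00372 in edgeR) and S100a9 by 4.49 ± 0.66 (adjusted p = 0.00364 in edgeR), in a tissue where 3.31% of genes were called (369 genes). Without day 14 the log2 values were 3.95 and 3.93 and neither gene passed (adjusted p = 0.134 and 0.0987 in edgeR), and without the replicate block S100a9 did not pass (adjusted p = 0.0686 in edgeR).

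In scaffold the levels were lower and the difference did not pass the test. S100a8 stood at 1887, 5858 and 25470 CPM on days 7, 14 and 21 in tumour-bearing scaffolds, against 657, 390 and 1556 CPM in healthy scaffolds. S100a9 stood at 2388, 5645 and 32104 CPM in tumour-bearing scaffolds, against 997, 366 and 3034 CPM in healthy scaffolds. On each day the tumour-bearing library was the higher one, but for S100a9 the groups overlapped, since tumour-bearing day 7 lay under healthy day 21. The log2 fold change was 3.30 ± 0.67 (adjusted p = 0.0871 in edgeR) for S100a8 and 3.02 ± 0.64 (adjusted p = 0.106 in edgeR) for S100a9, where 0.161% of genes were called (18 genes). Both genes passed with DESeq2 (adjusted p = 1.96e-05 and 5.46e-05), with scaffold fitted alone (0.0382 and 0.0479 in edgeR) and without day 7 (0.0305 and 0.0334 in edgeR).

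**Figure D1:**
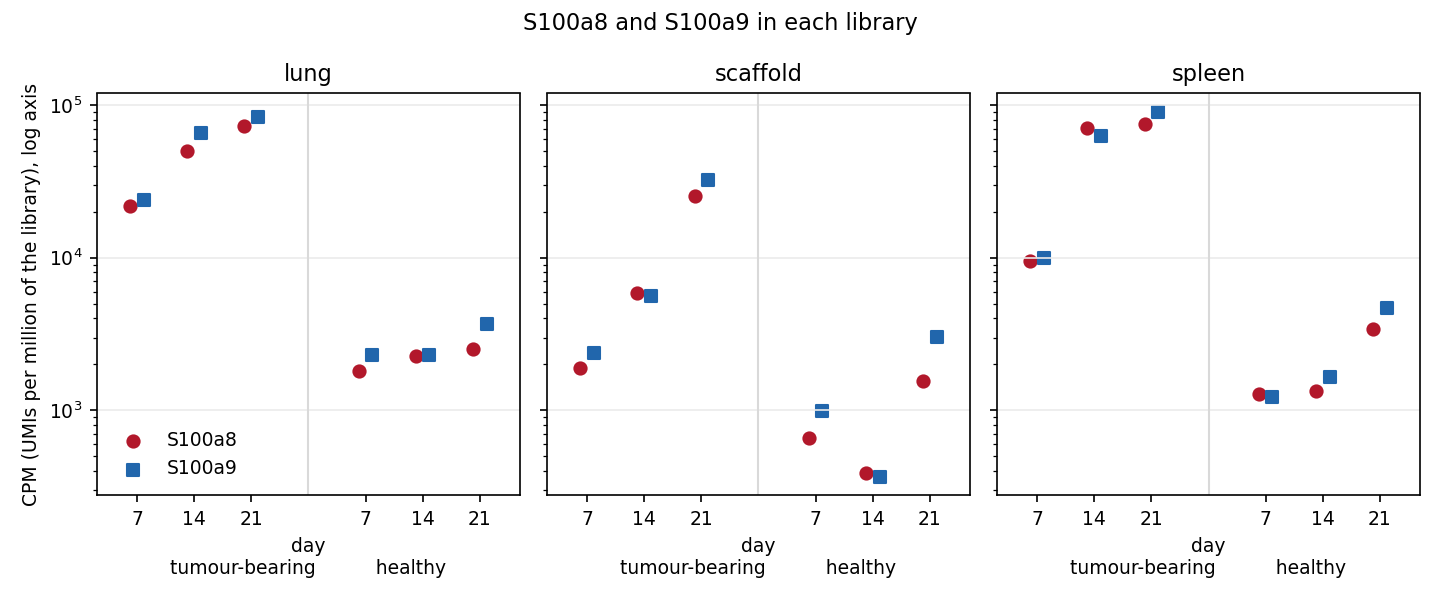
CPM of S100a8 (circles) and S100a9 (squares) in each of the 18 libraries, on a log axis, by day, with tumour-bearing libraries left of healthy ones in each tissue. In lung the tumour-bearing points lie between 21712 and 83566 CPM and the healthy points between 1802 and 3653 CPM, whereas tumour-bearing scaffold of day 7 lies near the healthy points.

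The summed level of the pair was 105814 ± 55831 CPM (SD, n = 3) in tumour-bearing lung, 105750 ± 76478 CPM in tumour-bearing spleen and 24451 ± 28912 CPM in tumour-bearing scaffold. With all barcodes the healthy groups followed in the same order, with 4957 ± 1084 CPM in lung, 4525 ± 3091 CPM in spleen and 2334 ± 2006 CPM in scaffold. With assignment healthy spleen (5519 ± 4674 CPM) lay above healthy lung (3310 ± 1833 CPM) and healthy scaffold (2227 ± 1875 CPM). Within a status, neighbours in either order did not differ beyond their spread, and tumour-bearing scaffold and healthy lung overlapped in range. The difference of the tumour effect between tissues was tested in the same edgeR model. Lung minus scaffold was 1.26 ± 0.86 for S100a8 and 1.49 ± 0.83 for S100a9 on the log2 scale, and spleen minus scaffold was 1.37 ± 0.89 and 1.47 ± 0.84. Spleen minus lung was 0.10 ± 0.87 for S100a8 and -0.02 ± 0.82 for S100a9. None of these 6 values passed (adjusted p from 0.58 to 0.995 in edgeR). In these contrasts 0% of genes were called for lung minus scaffold, 0.0179% for spleen minus lung and 0% for spleen minus scaffold in edgeR. At an unadjusted p under 0.05 there were 1062, 1117 and 846 genes, and DESeq2 called 49, 15 and 19.

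The tumour-bearing level was higher on later days in every tissue, and the fold over the healthy library of the same day was lowest on day 7. Summed over both genes, tumour-bearing lungs stood 11.1, 25.2 and 25.3 times higher than healthy lungs on days 7, 14 and 21. Tumour-bearing scaffolds stood 2.58, 15.2 and 12.5 times higher and tumour-bearing spleens 7.77, 44.4 and 20.4 times higher than their healthy libraries. The slope of the tumour effect on day, fitted over all tissues, was 0.99 ± 0.31 log2 units per 7 days for S100a8 and 0.86 ± 0.32 for S100a9. Neither passed (adjusted p = 0.14 and 0.207 in edgeR), and 0.556% of genes were called (62 genes). With assignment the values were 1.57 and 1.69 and both genes passed (adjusted p = 0.00142 and 4.42e-04 in edgeR), and S100a8 also passed with DESeq2 (adjusted p = 0.0226). In healthy lung of day 21 the pair stood at 6176 CPM with all barcodes and at 1194 CPM with assignment, which took the fold of that day to 151.

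The pair was concentrated in a subset of cells. Cells in which S100a8 and S100a9 together made up at least 5% of UMIs are called pair-rich below. There were 6571 such cells, 6166 among 15106 cells of tumour-bearing and 405 among 9430 cells of healthy libraries, and in the highest cell the pair made up 59.8% of UMIs. In the band from 4 to under 5% lay 298 cells, and 288 lay from 5 to under 6%. These cells held 81.1 to 98.7% of all UMIs of the pair in tumour-bearing libraries and 46.2 to 93.3% in healthy libraries.

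In tumour-bearing lungs pair-rich cells made up 34.5%, 57.5% and 60.1% of cells on days 7, 14 and 21, against 5.58%, 5.84% and 3.40% in healthy lungs. In tumour-bearing scaffolds they made up 9.68%, 17.8% and 36.8%, against 4.16%, 1.02% and 8.83% in healthy scaffolds. In tumour-bearing spleens they made up 9.80%, 47.5% and 50.6%, against 0.62%, 1.96% and 4.11% in healthy spleens. With assignment the day 21 shares were 84.3% in tumour-bearing and 0.851% (2 of 235 cells) in healthy lung. In spleen they were 65.5% in tumour-bearing and 3.70% (1 of 27 cells) in healthy mice. The share was higher in the tumour-bearing library of all 9 tissue and day pairs. The exact binomial 95% intervals of the 2 libraries overlapped in none of them, but these intervals cover counting error only. They do not measure the spread between libraries and give no test of a single day. The closest were the scaffolds of day 7 (8.24 to 11.3% against 2.91 to 5.73%). The mean difference was 3.90 ± 0.45 (SE, n = 9 pairs) on the log2 odds scale, and the 2-sided exact sign-flip permutation test gave p = 0.00391, the smallest that 9 pairs allow. The test takes the 9 pairs as independent, although the 3 tissues of a day share that day and, on day 21, many barcodes; flipping whole days, like testing the 3 pairs of a single tissue, cannot go below 0.25. With assignment the mean was 4.37 and with assignment and without day 21, a setting chosen after the data were seen, it was 3.79, positive in 6 of 6 pairs, where the exact permutation test gave 0.0312, the smallest p that 6 pairs allow.

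**Figure D2:**
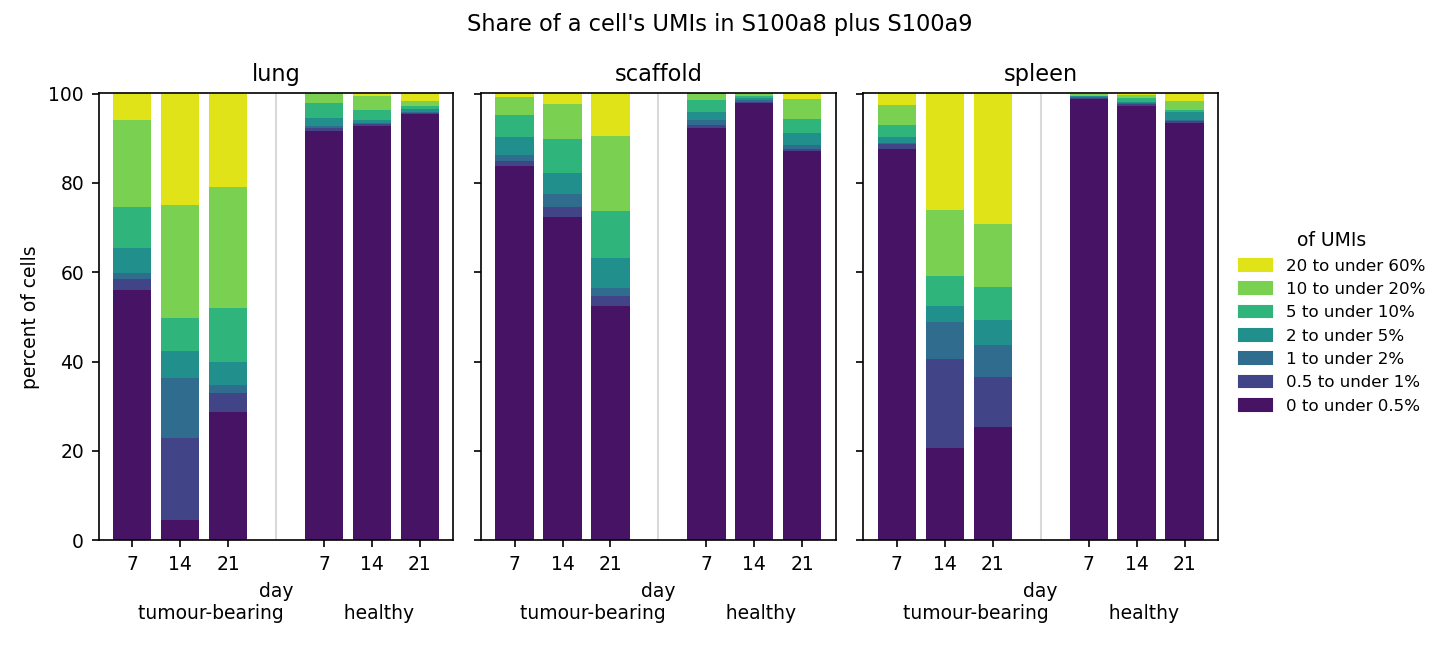
Cells of each library divided by the percent of their UMIs that came from S100a8 plus S100a9, as stacked percentages of cells, with tumour-bearing libraries left of healthy ones. The light bands (5% and more) reach 60.1% of cells in tumour-bearing lung of day 21, against 3.40% in healthy lung of that day.

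The share of UMIs in the pair also varied among pair-rich cells, and is given here as a description, since the same share defined these cells. The median pair-rich cell of tumour-bearing lungs had 14.3%, 18.6% and 16.7% of its UMIs in the pair on days 7, 14 and 21, against 8.65%, 11.4% and 22.2% in healthy lungs. In tumour-bearing spleens the medians were 13.3%, 21.2% and 23.0%, against 12.0%, 11.1% and 17.0% in healthy spleens. In tumour-bearing scaffolds they were 9.86%, 11.3% and 14.1%, against 8.42%, 11.0% and 12.0% in healthy scaffolds. The tumour-bearing median was the lower one in lung of day 21, whose healthy library held 35 pair-rich cells, 33 of which had barcodes that assignment removed. In healthy spleen of day 21 assignment removed 20 of 21. Healthy spleen of day 7 had 3 pair-rich cells and healthy scaffold of day 14 had 17.

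Genes outside the pair described these cells further. The shares below are medians over the 9 tumour-bearing and the 7 healthy libraries with at least 20 pair-rich cells. Cxcr2, a chemokine receptor of neutrophils, was detected in 83.4% of pair-rich cells in tumour-bearing and 65.2% in healthy libraries, and in 7.04% and 1.62% of the other cells of those libraries. Csf3r, the receptor of granulocyte colony-stimulating factor, was detected in 61.0% of pair-rich cells in tumour-bearing and 58.5% in healthy libraries, and in 10.5% and 3.24% of the other cells. Ngp, a protein of neutrophil secondary granules, was detected in 41.8% of pair-rich cells in tumour-bearing and 10.4% in healthy libraries, and in 4.90% and 0.204% of the other cells. In 2 healthy libraries, lung and spleen of day 21, the shares were unlike these medians: Csf3r was detected in 2.86% and 0% of pair-rich cells, Cxcr2 in 8.57% and 0%, and Ngp in 80.0% and 90.5%. Markers of other cells were rarer in pair-rich cells than outside them. C1qa of macrophages was detected in 1.33% of pair-rich against 7.25% of other cells in tumour-bearing libraries, F13a1 of monocytes in 2.36% against 15.1%, and Cd79a in 0.714% against 4.90%. In healthy libraries these 3 genes had medians of 0% in pair-rich cells, with 6.34%, 2.65% and 1.86% in other cells.

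Whole-library sums cannot tell more cells with the pair from more of its RNA per cell. Cells with a Csf3r UMI were also summed alone, a gate that does not use the pair, but the 2 readings cannot be told apart within it either, since the share of its cells that were pair-rich differed between the groups. That share was 74.1% and 83.8% on days 7 and 14 in tumour-bearing lungs, against 50.8% and 52.8% in healthy lungs. In scaffolds it was 40.7%, 54.7% and 71.6% on days 7, 14 and 21 in tumour-bearing mice, against 32.1%, 11.3% and 40.5% in healthy mice. It was higher in the tumour-bearing library of each of these pairs. In lung such cells held 101308, 155893 and 175471 CPM of the pair on days 7, 14 and 21 in tumour-bearing mice, against 36353 and 42637 CPM on days 7 and 14 in healthy mice. Healthy lung of day 21 had 9 such cells, and both lung libraries of that day were left out of the fit. In scaffold they held 16736, 35075 and 105943 CPM in tumour-bearing mice, against 7492, 1987 and 18413 CPM in healthy mice. In spleen the 1 pair of libraries with at least 20 such cells on both sides was day 14, with 154351 CPM in the tumour-bearing and 43340 CPM in the healthy library. In lung and scaffold each tumour-bearing library was above the healthy library of its day.

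In edgeR over 8261 genes S100a8 of Csf3r-detected cells rose by log2 2.38 ± 0.53 in lung (adjusted p = 0.00768) and by 3.04 ± 0.47 in scaffold (adjusted p = 6.50e-05). S100a9 rose by 2.43 ± 0.56 in lung (adjusted p = 0.00942 in edgeR) and by 2.65 ± 0.49 in scaffold (adjusted p = 9.76e-04 in edgeR). The spleen values were 2.82 ± 0.77 and 2.27 ± 0.78 and did not pass (adjusted p = 0.106 and 0.351 in edgeR); they rest on 1 pair of libraries assumed to vary like the others. Among the genes tested in these cells 2.65% were called in lung, 1.68% in scaffold and 0.496% in spleen. The lung calls did not hold when scaled by library totals alone (log2 1.64 and 1.69, adjusted p = 0.165 and 0.174 in edgeR), without day 7 (adjusted p = 0.135 and 0.0836) or without day 14 (0.244 and 0.31), and the scaffold call of S100a9 did not hold without day 14 (0.0536 in edgeR). In the same scaffold cells 6 of 7 genes of late neutrophil granules rose, among them Lcn2 (4.03 ± 0.54). Of 5 genes of early granules 2 fell there, Elane (-5.06 ± 1.11) and Ctsg (-4.44 ± 1.17). In such cells of lung 3 of 7 late and 1 of 5 early granule genes rose and 0 fell, with Prtn3 at 7.30 ± 1.99. The spleen value of Ctsg was 2.54 ± 0.58, so early granule genes did not move alike in the 3 tissues. Granule genes thus differed with the group in the same cells, and their part in the pair's level was not tested.

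Other gates showed where the pair was detected. Cells with a UMI of Elane or Mpo, proteases and peroxidase of early granules, held a median of 114551 CPM of the pair (11453 to 140775) over 5 tumour-bearing libraries and 97595 CPM (21818 to 111458) over 4 healthy ones. Of these 4 healthy libraries 3 were of day 21, lung and spleen among them, and the lowest was spleen of day 14. Cells with F13a1 held a median of 21075 CPM (358 to 148314) in tumour-bearing and 508 CPM (116 to 833) in healthy libraries. Cells with C1qa held 5168 CPM (584 to 54627) in tumour-bearing and 307 CPM (80.3 to 386) in healthy libraries. For F13a1 the groups overlapped through tumour-bearing scaffold of day 7. The share of such cells that were pair-rich had a median of 11.8% with F13a1 and 2.47% with C1qa in tumour-bearing libraries and 0% in healthy ones. Gates of lymphoid genes held the pair too. In tumour-bearing libraries the medians were 34722 CPM with Cd79a, 22946 CPM with Cd3e and 13468 CPM with Ncr1. In healthy libraries they were 490, 598 and 295 CPM. The median pair-rich shares in tumour-bearing libraries were 7.69%, 8.38% and 3.70%. Levels with F13a1 or C1qa were therefore not read as expression by monocytes or macrophages. Doublets were not removed, and their part in these levels was not tested.

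**Figure D3:**
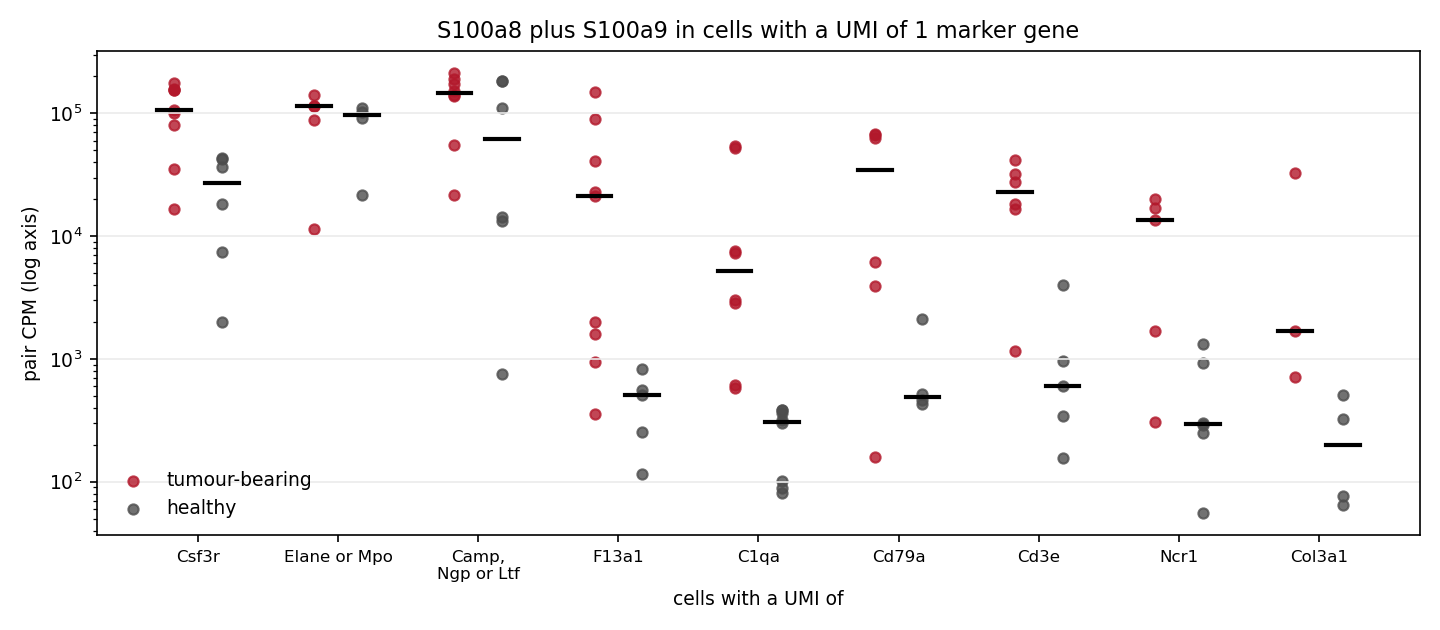
Summed CPM of S100a8 plus S100a9 (log axis) in cells with a UMI of the gene named on the horizontal axis, 1 point per library with at least 20 such cells, tumour-bearing left of healthy, with bars at the medians. Cells with Csf3r have medians of 105943 and 27383 CPM, and cells with C1qa have medians of 5168 and 307 CPM.

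Lymphocytes served as cells that should hold little of the pair. Cells with a UMI of Cd79a (of the B cell receptor) or Cd3e (of the T cell receptor complex) numbered 2881, of which 117 of 1398 in tumour-bearing and 3 of 1483 in healthy libraries were pair-rich. With the pair-rich cells left out, the pair stood at 1586, 11217 and 7857 CPM on days 7, 14 and 21 in lymphocyte cells of tumour-bearing lungs, against 498, 339 and 151 CPM in those of healthy lungs. In spleen it stood at 871, 7722 and 9897 CPM in those of tumour-bearing mice, against 389, 366 and 565 CPM in those of healthy mice. In scaffold it stood at 98.9, 1239 and 3292 CPM in those of tumour-bearing mice, against 704, 338 and 164 CPM in those of healthy mice, counted from 4, 53 and 88 UMIs in tumour-bearing and 28, 19 and 6 UMIs in healthy libraries. Lymphocyte cells were few on day 21, with 15 in healthy lung and 4 in healthy spleen.

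The level in other cells outside the pair-rich ones was measured beside it. In tumour-bearing lungs the remaining cells, neither pair-rich nor lymphocyte, held 3478, 10959 and 9273 CPM, against 710, 563 and 428 CPM in healthy lungs. In tumour-bearing spleens they held 1174, 8897 and 10547 CPM, against 251, 562 and 716 CPM in healthy spleens. In tumour-bearing scaffolds they held 840.1, 1779.9 and 3104 CPM, against 475, 409.9 and 564 CPM in healthy scaffolds. The lymphocyte level lay near that of the remaining cells in tumour-bearing lungs and spleens of days 14 and 21 and in tumour-bearing scaffold of day 21. It was lower in tumour-bearing lung and spleen of day 7 and scaffold of day 14, and far lower in tumour-bearing scaffold of day 7 (98.9 CPM, from 4 UMIs). In healthy mice it was higher in spleen and scaffold of day 7 and lower in the other libraries. In tumour-bearing lungs and spleens of days 14 and 21 most lymphocyte cells had a UMI of the pair: of those outside the pair-rich ones 98.7% did so in tumour-bearing lung of day 14, against 14.0% in healthy lung of that day (89.7% and 6.33% with each cell thinned to 300 UMIs). A share of cells with any UMI of the pair was therefore not read as expression. Free RNA gives all cells of a library a similar low level of its most abundant genes, and its part here was not tested beyond these values and the ratios below.

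**Figure D4:**
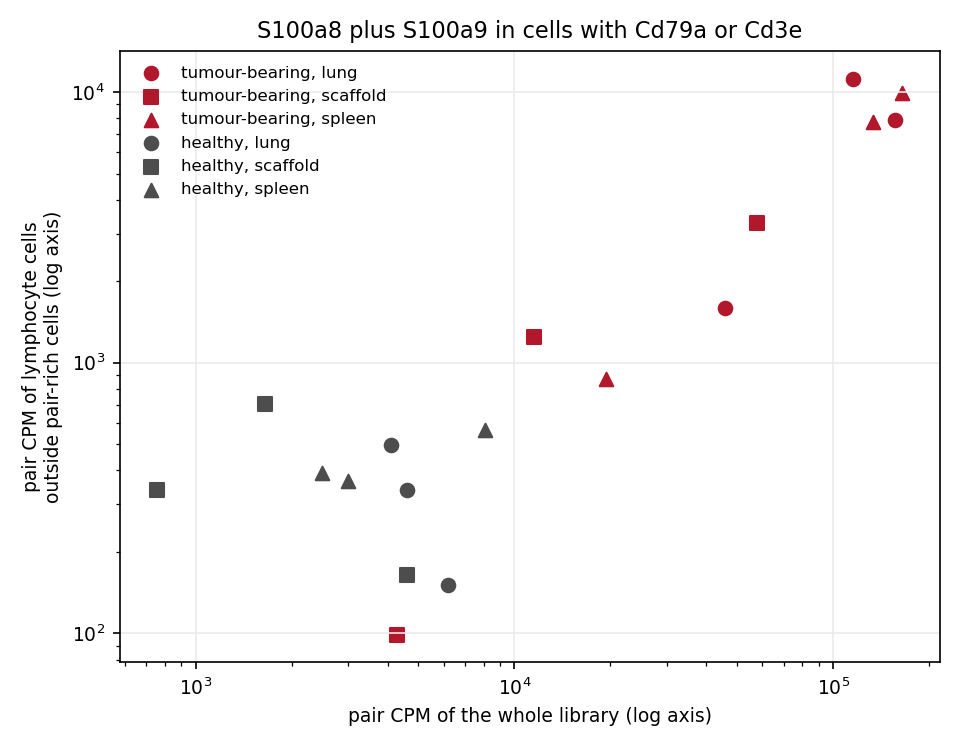
CPM of S100a8 plus S100a9 in lymphocyte cells outside the pair-rich ones against the CPM of the pair in the whole library, both on log axes, 1 point per library. The 4 tumour-bearing lungs and spleens of days 14 and 21 have 7722 to 11217 CPM in lymphocyte cells, and the healthy libraries have 151 to 704 CPM.

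With all lymphocyte cells S100a8 rose by log2 6.08 ± 0.76 in lung (adjusted p = 7.65e-06 in edgeR) and 4.54 ± 0.70 in spleen (adjusted p = 1.69e-04), and S100a9 rose by 5.77 ± 0.84 in lung (adjusted p = 9.60e-05 in edgeR) and 3.84 ± 0.76 in spleen (adjusted p = 0.00445). Healthy lung and spleen of day 21 and tumour-bearing scaffold of day 14 had fewer than 20 such cells and were left out. In scaffold the values were 1.90 ± 0.85 and 1.41 ± 0.95 (adjusted p = 0.899 and 0.916 in edgeR). Of 5461 genes tested 0.952% were called in lung, 0.201% in scaffold and 1.14% in spleen. With the pair-rich cells left out none of these values passed: S100a8 lay at 3.60 in lung and 3.12 in spleen (adjusted p = 0.083 and 0.197 in edgeR), and S100a9 lay at 3.19 and 2.62 (adjusted p = 0.284 and 0.719 in edgeR). Leaving out cells by their content of the pair also lowers the level by construction.

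S100a8 and S100a9 stayed close to each other in level. Drop-seq counts the 3′ ends of transcripts, so the ratio is of counted UMIs with no correction for length. In tumour-bearing libraries there were 0.904, 0.767 and 0.868 UMIs of S100a8 per UMI of S100a9 in lung on days 7, 14 and 21, against 0.783, 0.984 and 0.691 in healthy lungs. In scaffold the ratios were 0.790, 1.04 and 0.793 in tumour-bearing mice, against 0.659, 1.07 and 0.513 in healthy mice. In spleen they were 0.957, 1.12 and 0.827 in tumour-bearing mice, against 1.05, 0.805 and 0.727 in healthy mice. The ratio was thus between 0.513 and 1.12 in all 18 libraries, while the level of the pair ranged from 756 to 164931 CPM. The mean log2 difference between tumour-bearing and healthy libraries was 0.17 ± 0.10 (SE, n = 9 pairs; positive in 6 of 9; exact sign-flip permutation test, p = 0.133), and 0.00 ± 0.15 with assignment (p = 0.98 in the exact test, positive in 4 of 9).

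**Figure D5:**
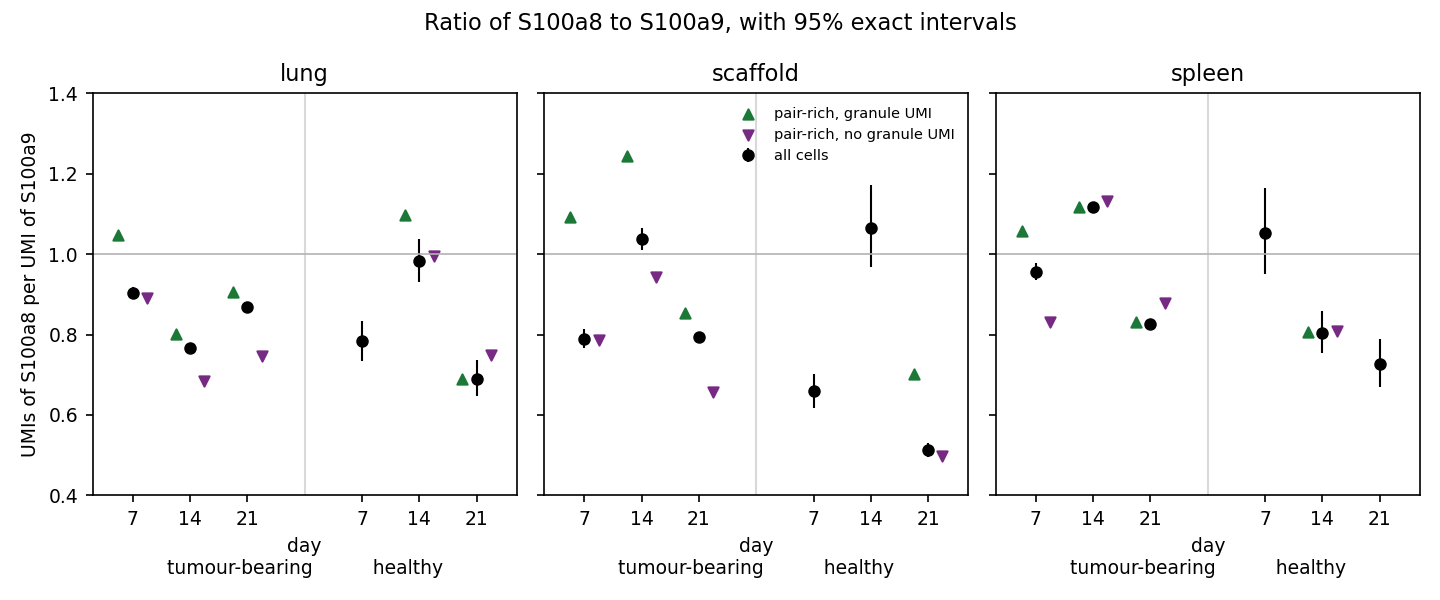
UMIs of S100a8 per UMI of S100a9 in each library (black, with exact 95% intervals that cover counting error), and in pair-rich cells with (upward triangles) and without (downward triangles) a UMI of Camp, Ngp or Ltf, where at least 5 cells of each kind were present; tumour-bearing libraries are left of healthy ones. The lowest ratio is 0.513 in healthy scaffold of day 21 and the highest is 1.12 in tumour-bearing spleen of day 14.

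Within pair-rich cells the balance of the 2 genes varied more than counting error alone would give. The share of S100a8 among the pair's UMIs had a standard deviation between cells of 9.51 to 13.3 percentage points in tumour-bearing libraries, where binomial counting alone gives 4.48 to 6.24, and of 7.41 to 14.4 in healthy libraries, where it gives 5.07 to 8.27. Nearly all of these cells had both genes, and 6 of 6571 lacked 1 of them. Of the 13 libraries with at least 20 UMIs of the pair in lymphocyte cells outside the pair-rich ones, the ratio of the pair-rich cells lay within the exact 95% interval of the lymphocyte ratio in 8. In the other 5 the lymphocyte ratio was lower than that of pair-rich cells in 4: tumour-bearing scaffold of day 21 (0.354 against 0.803), tumour-bearing spleen of day 7 (0.824 against 0.963), healthy spleen of day 7 (0.621 against 1.13) and healthy lung of day 14 (0.639 against 1.01). It was higher in tumour-bearing lung of day 14 (0.880 against 0.764).

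A few of the receptors and co-receptors through which the released proteins are known to act were called in lung and spleen, and most were not. Of 10 receptor genes tested, 2 rose and 1 fell in lung, 0 were called in scaffold and 2 rose in spleen, beside 9.07%, 0.161% and 3.31% of all genes called in these tissues. The median log2 value was -0.10 in lung, 0.15 in scaffold and 0.51 in spleen, beside -0.22, 0.00 and -0.03 over all genes tested. Tlr4, the Toll-like receptor, stood at 24.6, 19.5 and 24.2 CPM on days 7, 14 and 21 in tumour-bearing lungs, against 26.1, 13.0 and 9.82 CPM in healthy lungs. Its log2 values of 0.80 in lung, 0.04 in scaffold and 1.03 in spleen did not pass (adjusted p = 0.175, 1 and 0.243 in edgeR). Ager, the receptor for advanced glycation end products, was at 4.07 to 4.69 CPM in tumour-bearing and 8.18 to 13.0 CPM in healthy lungs and did not pass in any tissue (log2 -0.93, 2.19 and 0.76 in lung, scaffold and spleen). Bsg, the membrane protein basigin, a receptor of S100A9 in human cells, had log2 values of -0.21, -0.10 and 0.70 and was not called.

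Cd14 and Cd33 rose in lung and spleen. Cd14, which hands lipopolysaccharide to Toll-like receptor 4, stood at 256, 390.5 and 792 CPM in tumour-bearing lungs, against 62.7, 75.6 and 119 CPM in healthy lungs, and rose by log2 2.64 ± 0.34 in lung (adjusted p = 0.001 in edgeR) and 1.95 ± 0.35 in spleen (adjusted p = 0.00767). Cd33, a sialic acid-binding receptor whose human form binds S100A9, rose by 3.44 ± 0.66 in lung and 3.00 ± 0.76 in spleen (adjusted p = 0.0069 and 0.0476 in edgeR). Cd36, a scavenger receptor of lipids, was at 37.4 to 124 CPM in tumour-bearing and 180 to 230 CPM in healthy lungs and fell by 1.42 ± 0.41 on the log2 scale (adjusted p = 0.0452 in edgeR), a call that was lost with assignment. Among 6 genes of signalling below Toll-like receptor 4, 3 rose in lung and 2 in spleen, beside the 9.07% and 3.31% of all genes called, with the adaptor Myd88 at log2 2.45 ± 0.38 in lung and 2.24 ± 0.42 in spleen (adjusted p = 0.00252 and 0.00916 in edgeR).

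Calprotectin is known to carry arachidonic acid to the NADPH oxidase, the enzyme that makes superoxide in phagocytes. Of its 7 genes tested 3 rose in lung, 0 in scaffold and 3 in spleen, with medians of log2 1.77, 0.20 and 1.48, beside the 9.07%, 0.161% and 3.31% of all genes called. The cytosolic subunit Ncf4 stood at 171, 342 and 458 CPM on days 7, 14 and 21 in tumour-bearing lungs, against 60.6, 83.5 and 72.0 CPM in healthy lungs, and rose by 2.33 ± 0.43 in lung and 2.12 ± 0.44 in spleen (adjusted p = 0.00561 and 0.016 in edgeR). Cybb, the catalytic subunit, had log2 values of -0.11 ± 0.36 in lung and -0.01 ± 0.36 in scaffold and rose by 1.60 ± 0.39 in spleen (adjusted p = 0.861, 1 and 0.038 in edgeR). Of 8 myeloid regulators tested 2 rose in lung, 0 in scaffold and 2 in spleen, beside the same shares of all genes. Cebpe, a factor of late granulocyte maturation, stood at 26.8, 164 and 208 CPM in tumour-bearing spleens, against 0, 18.3 and 30.8 CPM in healthy spleens, and rose by 3.58 ± 0.60 (adjusted p = 0.00603 in edgeR), while its value of 1.50 ± 0.70 in lung did not pass (adjusted p = 0.174). Spi1, which encodes PU.1, rose by 1.90 ± 0.37 in lung and 1.91 ± 0.38 in spleen (adjusted p = 0.0078 and 0.0128 in edgeR).

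Granule genes were called in lung and spleen. All 6 genes of mature neutrophils rose in lung, 1 in scaffold and 5 in spleen, and 5 of 7 genes of late granules rose in lung, 0 in scaffold and 5 in spleen, beside 9.07%, 0.161% and 3.31% of all genes called. Of 5 genes of early granules 0 were called in lung and scaffold and 5 rose in spleen; their median log2 value was -0.18 in lung and 3.71 in spleen. Mpo, myeloperoxidase, stood at 147, 1181 and 1328 CPM in tumour-bearing spleens, against 0, 87.4 and 181 CPM in healthy spleens, while tumour-bearing lungs held 0.849, 36.6 and 41.3 CPM and healthy lungs 6.27, 14.8 and 88.3 CPM. Lcn2, a protein of late granules that takes iron carriers from bacteria, rose by 5.26 ± 0.85 in lung and 4.91 ± 0.85 in spleen (adjusted p = 0.00295 and 0.00677 in edgeR) and was one of 2 of 5 metal-binding defence genes that rose in each. Of 8 lymphocyte genes 1 fell in lung, Ms4a1 (-1.62 ± 0.47, adjusted p = 0.046 in edgeR), and 0 were called in scaffold and spleen. These lists were described by counts and not tested as sets. Without day 14, 1 receptor gene and 1 gene of mature neutrophils were called in lung, and the other counts of these lists were 0.

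Of 8 other S100 genes tested, 1 rose and 1 fell in lung, 0 were called in scaffold, and 1 rose and 1 fell in spleen, beside 9.07%, 0.161% and 3.31% of all genes called, with median log2 values of -0.73, -0.21 and -0.04. S100a11 stood at 2115, 3787 and 2710.2 CPM on days 7, 14 and 21 in tumour-bearing lungs, against 780, 1106 and 293 CPM in healthy lungs, and rose by 2.39 ± 0.49 in lung and 2.62 ± 0.50 in spleen (adjusted p = 0.00961 and 0.0105 in edgeR). S100a16 fell by 2.34 ± 0.61 in lung and S100a14 fell by 4.01 ± 0.95 in spleen (adjusted p = 0.0323 and 0.0382 in edgeR). S100a14 stood at 0, 0.555 and 14.6 CPM in tumour-bearing spleens, against 1.62, 0 and 459 CPM in healthy spleens. Its fall thus lies in the healthy library of day 21. With assignment 3 of these S100 genes rose and 0 fell in spleen, where 498 of all genes tested were called in that setting.

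Across the 18 libraries the 10 genes most like the mean of the pair, by Pearson correlation of log2 CPM among 11156 other genes, were 1100001G20Rik (now Wfdc21), Ceacam10, Lrg1, BC100530, Lcn2, Ifitm6, Pglyrp1, Cd177, Cep19 and Retnlg. Their correlations ran from 0.988 to 0.952, and that of S100a8 with S100a9 was 0.994. Tumour status contributes to these pooled values, so the values within each status are given too: 0.932 to 0.997 over the 9 tumour-bearing and 0.617 to 0.918 over the 9 healthy libraries, and 0.755 to 0.929 over the 9 differences of a tissue and day. Pglyrp1 encodes a protein that binds bacterial peptidoglycan, Cd177 a surface protein of neutrophils, and Retnlg a resistin-like protein of neutrophils. The points share the days, the tissues and the shared barcodes of day 21, and the correlations describe these libraries.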

How the data were processed

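The deposited values are the authors' raw UMI counts, with genes and cell barcodes as the 2 sides of a table for each library; the submitters' processing notes name the genome build mm10 and Seurat version 2, and about 1000 STAMPs were amplified per library per the labels. For the aligner, annotation and cell calling, the step and its settings were not given in the sources used here. Cells with at least 200 genes and under 20% mitochondrial UMIs were kept, and doublets were not removed. Counts were summed per library, or per library within cells that had a given marker UMI, where at least 20 such cells were present. A tissue and day left with 1 library was dropped from the fit. They were tested in edgeR 4.0.16 (R 4.3.3, quasi-likelihood, TMM factors, filterByExpr) with tumour status estimated separately per tissue and the day, which the labels give, as a block in each tissue, over all genes, with Benjamini-Hochberg adjustment and a threshold of 0.05. The fit of whole libraries had 6 residual degrees of freedom and that of day trends 5; the fits within cells with Csf3r and within lymphocyte cells had 3 each. Log2 fold changes are tumour-bearing over healthy. The procedure was tested on simulated data. Shares and log2 ratios were compared over tissue and day pairs with 2-sided exact sign-flip permutation tests, with 0.5 added to each count. Intervals are exact binomial (Clopper-Pearson) at the 95% level and cover counting error only. Thinning drew 300 UMIs per cell and left out 1412 shallower cells.

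S100a8 and S100a9, the gene lists and the alternatives were chosen with earlier results of these data known. Named in addition to the pair were Tlr4, Ager, Bsg, Cd36, Cybb and Cebpe, at most 4 called genes with the largest change per list and tissue, and the 10 genes most like the pair. Of 77 listed genes 76 were analysed. Gates rest on detection of any of 1 to 3 genes and carry no cell type name. Alternatives were DESeq2 1.42.0, library totals, no filter on low counts, no day block, single tissues, stricter and looser cell filters, assigned or merged barcodes, and leaving out each day (replicate 1 is day 7, 2 is day 14 and 3 is day 21).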

Additional observations from a re-analysis of the deposited data

How the results depend on the processing

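The share of pair-rich cells kept its direction and side of the threshold under every alternative run for it. The log2 ratio passed under none and had no direction with assigned barcodes (0.004, positive in 4 of 9 pairs). Without 1 day the share lay between 3.48 and 4.46 and the ratio between 0.07 and 0.25. Leaving out 1 day put S100a8 between 4.31 and 5.08 and S100a9 between 4.39 and 5.10 in lung, between 2.73 and 4.12 and between 2.45 and 3.82 in scaffold, and between 3.95 and 5.48 and between 3.93 and 5.15 in spleen; lung and spleen did not pass without day 14, and scaffold passed without day 7. In scaffold S100a8 and S100a9 also passed with DESeq2 (3.27 and 2.99), with no filter on low counts (3.28 and 3.00) and with that tissue alone (3.29 and 3.00). Without the replicate block S100a9 in spleen was 4.83 and did not pass; the block is the day, and the cause was not tested. The block changed no other call of the pair in whole libraries. Spleen minus lung, never called, changed sign for S100a8 with DESeq2 (-0.023), no filter (-0.11), cells of at least 400 genes (-0.31) and assigned barcodes (-0.58), and lay between -0.73 and 0.39 when 1 day was left out; for S100a9 it changed sign with no replicate block (0.15) and without day 7 (0.048) and lay between -0.49 and 0.048. The trend passed with assigned barcodes (1.57 and 1.69) and for S100a8 with DESeq2 (0.99). Of cells with Csf3r, lung fell below the threshold with library totals (1.64 and 1.69) and lay between 1.94 and 2.51 and between 1.77 and 2.80 when 1 day was left out; the scaffold value of S100a9 lay between 1.76 (without day 14, not passing) and 3.46. In lymphocyte cells without the pair-rich ones the values were 3.60 and 3.19 in lung and 3.12 and 2.62 in spleen. The log2 of the lymphocyte level over that of all other cells had a median of -1.43 (SD 1.70, 17 libraries). It was -4.16 with pair-rich cells left out of the lymphocyte cells alone, which lowers their level by construction. The other cells kept their pair-rich cells in that value, so it does not compare like cells.

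Genes called in lung, scaffold and spleen numbered 1012, 18 and 369; with DESeq2 1432, 40 and 556, without filter 1613, 191 and 909, without the replicate block 444, 0 and 72, and without day 14 42, 6 and 0. With library totals the median of all genes lay at -0.49, -0.10 and -0.32 in place of -0.22, 0.00 and -0.03. Few cells and UMIs limit the lymphocyte values: outside pair-rich cells, tumour-bearing scaffold of day 7 had 4 UMIs of the pair and healthy libraries of day 21 had 1 to 6.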

Other observations

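Pair-rich cells with a UMI of Camp, Ngp or Ltf, genes of secondary granules that mark a stage before full neutrophil maturity, had a different balance of the 2 genes from pair-rich cells without one in several libraries. This split was chosen after the values were seen, so it is described with no test. Such cells made up 7.72%, 52.0% and 53.3% of pair-rich cells on days 7, 14 and 21 in tumour-bearing lungs and 26.6%, 81.8% and 83.8% in tumour-bearing spleens. In tumour-bearing lungs cells with a granule UMI had 1.05, 0.802 and 0.905 UMIs of S100a8 per UMI of S100a9, against 0.890, 0.685 and 0.747 in cells without. In tumour-bearing scaffolds the ratios were 1.09, 1.24 and 0.854 with and 0.787, 0.944 and 0.656 without. In tumour-bearing spleens they were 1.06, 1.12 and 0.831 with and 0.832, 1.13 and 0.879 without, so that at full depth the order held on day 7 alone. Over the 13 libraries with at least 5 cells of each kind the mean log2 difference was 0.21 ± 0.06 (SE), positive in 9. With assignment it was 0.19 ± 0.07, positive in 6 of 9. With the cells thinned to 300 UMIs it was 0.37 ± 0.05, positive in 12 of 12. The granule UMI and the pair-rich cells were still called at full depth there.

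In each tumour-bearing library the pair-rich cells with a granule UMI were deeper and held more of the pair. Their median number of UMIs was 1571, 1210.0 and 1772.5 in tumour-bearing lungs, against 840.0, 742.5 and 819 in cells without. The median share of the pair in their UMIs was 20.3%, 20.9% and 21.0%, against 13.7%, 15.2% and 12.1%. In healthy scaffold of day 21 the cells with a granule UMI were shallower (median of 392 UMIs against 564). Depth thus moved with the split in tumour-bearing libraries, and its part beyond the thinned value above was not tested.

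In healthy lung and spleen of day 21, 80% and 95.2% of pair-rich cells had a granule UMI, whereas healthy lungs of days 7 and 14 had 2.38% and 7.69% and healthy spleens of those days 33.3% (1 of 3 cells) and 34.8% (8 of 23). Nearly all of these day 21 cells carried barcodes also present in other libraries, 33 of 35 and 20 of 21.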
